A study of Mus musculus with 2 samples.

Results

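The 7 genes described here encode the interleukin-1 ligands Il1a and Il1b, the IL-1 receptor antagonist Il1rn, the receptors Il1r1 and Il1r2, and the cytokines Il6 and Tnf. They were picked by symbol, and each of the 7 matched a single row among the 31253 genes of the tables. Their RNA was counted in leukocytes of a mouse tumour of the bile ducts within the liver, intrahepatic cholangiocarcinoma, with unique molecular identifiers (UMIs, tags that mark single RNA molecules). Livers of C57BL/6 mice in both groups had received Myr-AKT, a membrane-bound AKT kinase, and YAPS127A, a YAP coactivator altered at an inhibitory site, from transposon vectors given by hydrodynamic injection. The NAV group was then dosed from day 7 with NAV2729, an inhibitor of ARF GTPase activation, at 30 mg/kg on alternate days for 7 days, whereas the MOCK group was not given the compound. CD45+ cells were sorted and pooled into 1 library per group, so the vectors, the host liver and the sort were common to both groups. The design text gives 6 tumours per group and the protocol 3 pairs, so the size of the pools is uncertain.

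The NAV library held 31454031 UMIs in 10465 barcodes and the MOCK library 45976676 UMIs in 10863 barcodes. After filtering and doublet removal 10037 NAV cells and 10326 MOCK cells were analysed, with medians of 2066 and 3770 UMIs, and 5 barcode sequences occurred in both libraries. Ptprc, the gene of CD45, had a UMI in 79.9% of NAV and 83.6% of MOCK cells, and Epcam, an epithelial gene, in 2.59% and 1.78%. The cells fell into 25 clusters, found without the 7 genes among the clustering genes. Most clusters took a name ending in "-like" from marker genes, and 6 that the markers did not name are called by their leading gene. Of these classes 8 held at least 200 cells in each library and are compared between libraries, and 8 smaller ones are given as values. Since each group is a single library, differences cannot be set against a replicate spread and no test was made. Levels are counts of a gene scaled to the same total of UMIs in every class (CPM), ratios are log2 of NAV over MOCK CPM, and the ranges after them are exact 95% intervals for counting error only, which treat the UMIs of a cell as independent.

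As background, IL-1 alpha and IL-1 beta bind the same signalling receptor, encoded by Il1r1. Il1rn encodes a ligand that occupies this receptor without activating it, and Il1r2 encodes a decoy that binds IL-1 and does not signal. IL-1 beta is made as an inactive precursor that caspase-1 cleaves in inflammasomes, while TNF is shed from the cell surface by the protease ADAM17. In the liver, resident Kupffer cells are a classic source of TNF, IL-1 and IL-6, and IL-6 drives the acute-phase response of hepatocytes and can act on bile duct epithelium.

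In the GRCm38 assembly, also called mm10, Il1a (ENSMUSG00000027399) lies on chromosome 2 from 129299610 to 129309972 on the minus strand and Il1b (ENSMUSG00000027398) from 129364570 to 129371139 on the same strand. Il1rn (ENSMUSG00000026981) lies elsewhere on chromosome 2, from 24336853 to 24351494. Il1r2 (ENSMUSG00000026073) and Il1r1 (ENSMUSG00000026072) are neighbours on chromosome 1, from 40074079 to 40125231 and from 40225080 to 40317257. Il6 (ENSMUSG00000025746) is on chromosome 5 from 30013114 to 30019981, and Tnf (ENSMUSG00000024401) on chromosome 17 from 35199381 to 35202007 on the minus strand. All 7 are annotated as protein-coding genes.

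RefSeq's promoter table for GRCm38.p6 held all 7 genes, with 3 entries for Il1rn, 2 for Il1r1 and 1 for each other gene. The windows, 250 bases before the gene start and 50 after it, are shown for the 4 cytokine genes because their levels over the cell classes are compared below. They are chr2:129309923-129310222 (minus strand) for Il1a, chr2:129371090-129371389 (minus strand) for Il1b, chr5:30012864-30013163 (plus strand) for Il6 and chr17:35201958-35202257 (minus strand) for Tnf. Sequences run 5′ to 3′ on the gene's strand. Capitals mark matches, on either strand, to 3 motifs: the NF-kappaB motif, the AP-1 motif TGANTCA and the TATA box TATAAA.
Il1a: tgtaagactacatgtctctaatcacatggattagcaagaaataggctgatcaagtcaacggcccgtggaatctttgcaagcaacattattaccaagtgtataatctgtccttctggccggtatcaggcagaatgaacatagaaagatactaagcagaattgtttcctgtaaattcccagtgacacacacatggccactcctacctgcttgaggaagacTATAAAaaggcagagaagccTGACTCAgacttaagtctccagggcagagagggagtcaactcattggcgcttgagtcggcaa
Il1b: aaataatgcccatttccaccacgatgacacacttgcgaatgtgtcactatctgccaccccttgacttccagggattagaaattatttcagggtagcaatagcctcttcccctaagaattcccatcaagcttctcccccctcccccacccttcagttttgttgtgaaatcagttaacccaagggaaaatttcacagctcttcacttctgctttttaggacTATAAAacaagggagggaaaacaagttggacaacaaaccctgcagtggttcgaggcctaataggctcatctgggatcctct
Il6: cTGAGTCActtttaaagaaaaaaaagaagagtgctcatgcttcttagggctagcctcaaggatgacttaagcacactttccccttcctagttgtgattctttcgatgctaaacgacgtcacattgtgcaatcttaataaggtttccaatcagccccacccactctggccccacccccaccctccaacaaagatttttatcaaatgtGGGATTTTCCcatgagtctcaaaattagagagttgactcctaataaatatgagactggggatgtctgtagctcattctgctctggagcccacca
Tnf: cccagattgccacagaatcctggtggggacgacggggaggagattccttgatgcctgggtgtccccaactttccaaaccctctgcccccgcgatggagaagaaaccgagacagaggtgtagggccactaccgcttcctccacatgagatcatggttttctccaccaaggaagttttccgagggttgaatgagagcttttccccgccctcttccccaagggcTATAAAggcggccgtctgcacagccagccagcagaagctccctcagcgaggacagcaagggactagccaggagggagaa
Il1a, Il1b and Tnf each held a TATAAA, whose first base lay at position -32, -31 and -29 from the gene start, and the Il6 window held none. The Il6 window held an NF-kappaB match starting at -44 and an AP-1 match at -249, and the Il1a window an AP-1 match at -12. Of 32851 promoter windows of this length in the table, 8.46% held the NF-kappaB motif, 7.81% the AP-1 motif and 13.6% the TATA box. The matches describe these letters only.

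Over all cells the 7 genes did not share a direction. Il6 was lower in NAV, at 154 UMIs (5.20 CPM), against 829 UMIs (19.2 CPM) in MOCK, a ratio of -1.88 (-2.14 to -1.63). Il1a was also lower, at 190.1 CPM in NAV and 317.8 CPM in MOCK (-0.74, -0.79 to -0.70). The decoy receptor Il1r2 was higher, at 603.7 CPM in NAV and 269.7 CPM in MOCK (1.16, 1.13 to 1.20). Smaller positive ratios were counted for Tnf (205.6 CPM in NAV and 154.3 CPM in MOCK, 0.41), Il1rn (397.8 and 327.1 CPM, 0.28) and Il1b (3031 and 2527 CPM, 0.26). The signalling receptor Il1r1 had 349 UMIs in NAV and 560 in MOCK, and its interval held 0 (-0.14, -0.34 to 0.06), although the ratio was -0.40 without the 1% of cells with the most of its UMIs in each library, a setting chosen after seeing the data. Il1r2 was thus the member higher by a log2 ratio of 1 or more and Il6 the member lower by as much, where 5.05% of 13891 genes with at least 20 UMIs were higher and 6.07% lower by that size.

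The classes that held these UMIs differed in size between the libraries. Kupffer-like cells were 2.7% of NAV cells and 9.54% of MOCK cells, and Macrophage-like cells 13.6% and 22.6%. The Siglecf-led cluster was 12.2% of NAV and 7.07% of MOCK cells, and a Cxcl3-led cluster 14.2% of NAV and 1.82% of MOCK cells. When each library was reweighted to the mean class shares, the ratios over all cells moved to 0.048 for Il1b, 0.016 for Il1rn, 0.047 for Tnf, 0.36 for Il1r2, -0.28 for Il1r1 and -0.38 for Il1a. Fewer cells of a class and less RNA per cell cannot be told apart in the sum over a library, and the class values below separate them as far as the classes do. Il6 turned to 0.16 under the same reweighting, with the Prg4-led cluster of 1 NAV cell and 61 MOCK cells included. Without that cluster the reweighted Il6 ratio was -1.17, a setting chosen after seeing the data. With equal weight per cell in place of summed counts the Il1a ratio over all cells was 0.090.

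**Figure D1:**
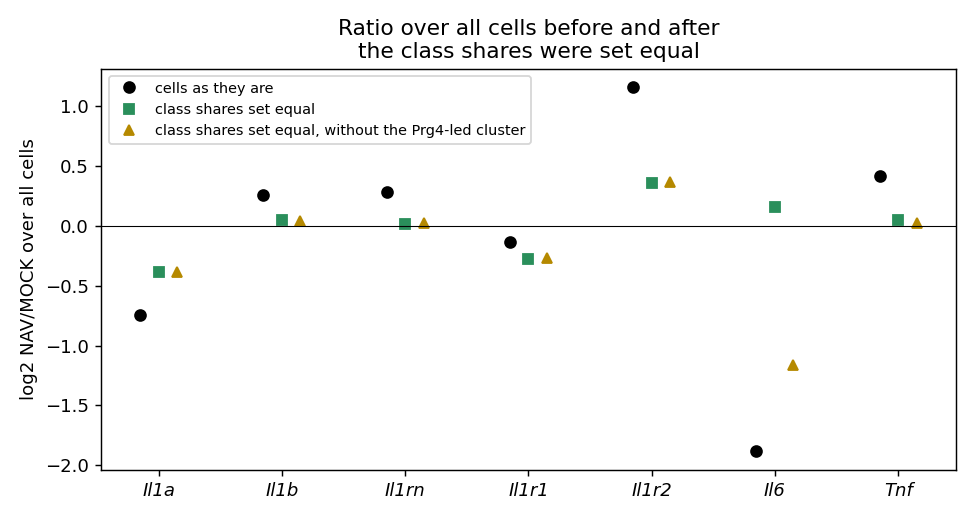
The log2 ratio of NAV over MOCK CPM over all cells (vertical axis) for the 7 genes, with cells as they are (circles), with class shares set equal (squares) and also without the Prg4-led cluster (triangles). The ratios of Il1b, Il1rn and Tnf lie near 0 once class shares are equal, and Il6 lies at 0.16 with and at -1.17 without the Prg4-led cluster.

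Il1b, the secreted form of IL-1 that needs inflammasome cleavage, was highest in granulocytes. The Siglecf-led cluster had 5 of 10 neutrophil markers passing. Of the eosinophil markers, Siglecf was found in 47.0% of its cells and Ccr3 in 1.13%. No UMI of Prg2, Il5ra or Epx, the eosinophil peroxidase gene, was found in it, but Epx had none in any analysed cell. The Siglecf-led cluster held 11100 CPM of Il1b in NAV and 8601 CPM in MOCK (0.37, 0.33 to 0.41), a ratio of 0.79 when the libraries were clustered separately. Neutrophil-like cells, led by Retnlg, held 7919 CPM in NAV and 6029 CPM in MOCK (0.39, 0.35 to 0.44). The Cxcl3-led cluster held 10292 CPM in NAV and 6292 CPM in MOCK, and the small Ifit3-led cluster 11377 and 9486 CPM. All 4 granulocyte clusters were thus above every other class that held at least 50 cells in each library, and in each the NAV value was the higher. After each cell was thinned to 1000 UMIs, Il1b was detected in 95.6% of NAV and 91.6% of MOCK Neutrophil-like cells and in 94% and 92.2% of Siglecf-led cells.

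In mononuclear phagocytes Il1b did not follow the granulocytes. Macrophage-like cells held 2102 CPM in NAV and 2099 CPM in MOCK (0.00, -0.03 to 0.03), and Kupffer-like cells 2304 and 2169 CPM (0.09, 0.04 to 0.14). Monocytes leave the blood and can become tissue macrophages, and their Classical monocyte-like class was lower, at 1970 CPM in NAV and 2649 CPM in MOCK (-0.43, -0.46 to -0.40). Within that class the Vcan-led cluster had a ratio of -0.53 and the Mmp19-led cluster -0.20, and with doublets kept the class ratio was -0.28. The 10 neutrophil markers summed to 484 CPM in NAV (Ly6g at 0) and 2311 CPM in MOCK in the Vcan-led cluster, and to 242.7 and 214.9 CPM in the Mmp19-led cluster, and their part in the monocyte values of Il1b was not tested. Conventional dendritic cells of type 2, the cDC2-like class, held 3606 CPM in NAV and 4893 CPM in MOCK (-0.44, -0.48 to -0.40), and the smaller Nonclassical monocyte-like class 2372 and 3490 CPM (-0.56). The Il1b ratio of the Siglecf-led and Neutrophil-like cells therefore lay above 0, and that of monocytes and cDC2-like cells below it, with counting intervals that did not meet, and the difference between classes was not tested.

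Lymphoid classes held less Il1b. B cell-like cells held 89.2 CPM in NAV and 102.7 CPM in MOCK (-0.20, -0.54 to 0.14), and 8.36% and 10.1% of them had a UMI after thinning. B cell-like cells serve here as a class for comparison, with median depths of 1365.5 UMIs in NAV and 1270 UMIs in MOCK. Whether they express Il1b, Il1r1, Il1r2 or the other members themselves was not tested, so their values are not a blank. T-like cells held 652.8 CPM in NAV and 1129 CPM in MOCK (-0.79, -0.90 to -0.68), most of it in the Cd8a-led cluster. In that cluster the 10 macrophage markers summed to 3395 CPM in NAV and 7726 CPM in MOCK, none of them at 0, against 229.96 and 442 CPM in B cell-like cells. The part of these macrophage transcripts in the T-like values was not tested. The same holds for Il1a (-1.45) and Il1rn (-1.08) in T-like cells, the 2 of 5 measured members lower there by 1 or more, where 2.43% of genes were higher and 8.0% lower by that size. Both calls were lost with doublets kept, at -0.78 for Il1a and -0.57 for Il1rn, and that of Il1a also minus the other large classes' median (-0.69). The Il1rn ratio also fell just short of that size under the stricter cell filter (-0.997) and with cluster shares set equal (-0.99). With each library clustered on its own the T-like ratios were -3.79 for Il1a, -2.85 for Il1rn and -2.30 for Il1b.

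Il1a, the IL-1 form that also acts from within the cell membrane and on release from dying cells, had its UMIs spread over granulocytes and macrophages in NAV and had Kupffer-like cells as its largest source in MOCK. Kupffer-like cells held 697.7 CPM in NAV and 990 CPM in MOCK (-0.50, -0.60 to -0.42), from 226 of 271 NAV cells and 847 of 985 MOCK cells with a UMI. They gave 20.9% of the Il1a UMIs in NAV and 50.7% in MOCK. The very small Prg4-led cluster held 533 Il1a UMIs over its 61 MOCK cells, more per cell than Kupffer-like cells with 6949 UMIs. These were 3.89% of the MOCK UMIs of Il1a, with 67.0% of them in 10 cells, and its 1 NAV cell held 8 UMIs. The Cxcl3-led cluster held 886.8 CPM in NAV and 322.9 CPM in MOCK, and its share of all Il1a UMIs was 25.5% in NAV and 0.540% in MOCK. The Siglecf-led cluster held 592.5 CPM in NAV and 487.8 CPM in MOCK (0.28, 0.11 to 0.45), although the ratio was -0.065 when the 7 genes were kept among the clustering genes and 1.29 when the libraries were clustered separately. Neutrophil-like cells held little, at 62.3 CPM in NAV and 78.3 CPM in MOCK, with an interval that held 0 (-0.33, -0.87 to 0.18). Under the alternatives their ratio lay between -0.48 and 1.1, the highest with each library clustered on its own.

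In the large classes of macrophages, monocytes and cDC2-like cells Il1a was lower in NAV. Macrophage-like cells held 176.3 CPM in NAV and 301.2 CPM in MOCK (-0.77, -0.87 to -0.68), and the ratio was -0.60 in their Ms4a7-led and -1.24 in their Arg1-led cluster. Classical monocyte-like cells held 37.7 CPM in NAV and 70.8 CPM in MOCK (-0.91, -1.13 to -0.69), and cDC2-like cells 50.5 and 85.3 CPM (-0.76, -1.11 to -0.41). The monocyte ratio was -0.43 under the stricter cell filter, and the cDC2-like ratio -1.19 without the 1% of cells richest in Il1a. The smaller Nonclassical monocyte-like class went the other way, with 89 UMIs (55.9 CPM) in NAV and 20 UMIs (30.3 CPM) in MOCK (0.88, 0.17 to 1.66). Among the large classes, the Siglecf-led cluster was not lower either (0.28), and the interval of Neutrophil-like cells held 0. After the median Il1a ratio of the other large classes was subtracted, the ratio was 0.27 in Kupffer-like, -0.015 in Macrophage-like and 0.015 in cDC2-like cells. That median took in B cell-like cells (8 UMIs in NAV and 17 in MOCK) and T-like cells. Whether the classes share a shift was not tested.

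**Figure D2:**
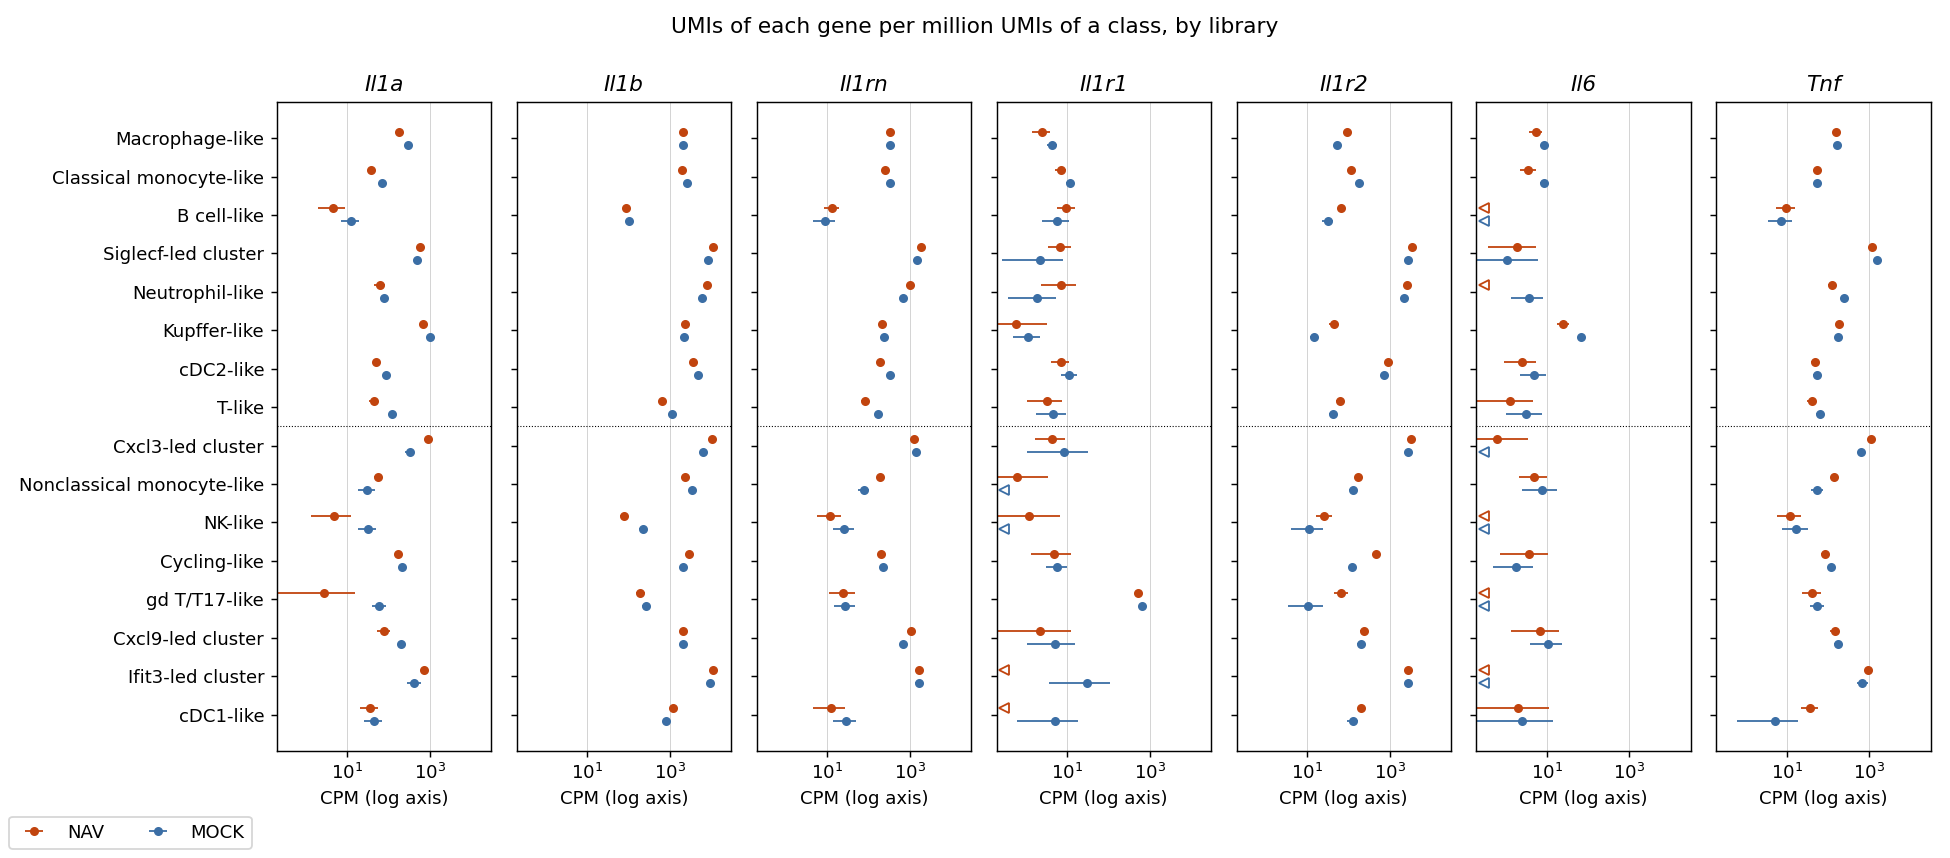
Level of each gene in CPM (horizontal log axes) in NAV (upper point of each pair) and MOCK (lower point) for 8 larger classes above the dotted line and 8 smaller ones below it. Bars are exact 95% intervals for counting error and open triangles stand for 0 UMIs, and the plot shows Il1b and Il1r2 highest in the granulocyte clusters and Il1r1 highest in gd T/T17-like cells.

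Il1rn, the receptor antagonist, was carried by the same broad classes as Il1b. The Siglecf-led cluster held 1827 CPM in NAV and 1479 CPM in MOCK (0.30, 0.21 to 0.40), with ratios between 0.022 and 0.61 when the cells were clustered in other ways. Neutrophil-like cells held 996.4 CPM in NAV and 688.4 CPM in MOCK (0.53, 0.39 to 0.67). The interval of Macrophage-like cells held 0, with 339.5 CPM in NAV and 337.9 CPM in MOCK (0.01, -0.07 to 0.08), but the ratio was -0.54 in their Arg1-led and 0.13 in their Ms4a7-led cluster. cDC2-like cells were lower in NAV, at 191.1 CPM, against 336.4 CPM in MOCK (-0.82, -0.99 to -0.64). Classical monocyte-like cells held 255 CPM in NAV and 326.2 CPM in MOCK (-0.36), but the ratio was 0.28 in their Vcan-led and -0.25 in their Mmp19-led cluster, and -0.087 with the shares of these clusters set equal. The interval of Kupffer-like cells held 0 (-0.16, -0.32 to 0.01). The smaller Nonclassical monocyte-like class was higher in NAV, with 303 UMIs (190.2 CPM), against 51 UMIs (77.2 CPM) in MOCK (1.30, 0.87 to 1.76).

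Set against the agonist, there were 13.1 Il1rn UMIs for every 100 Il1b UMIs in NAV and 12.9 in MOCK, counts that are not scaled by transcript length. The proportion was 16.2 in NAV and 16.1 in MOCK Macrophage-like cells, and 16.5 and 17.2 in the Siglecf-led cluster. cDC2-like cells had 5.30 per 100 in NAV and 6.88 per 100 in MOCK. Among classes of at least 50 cells in each library, the small Cxcl9-led cluster, of 92 NAV and 111 MOCK cells, had the most antagonist counts for its Il1b, at 50.4 in NAV (45.1 to 56.4) and 31.7 in MOCK (28.2 to 35.5). In it 10 cells held 54.2% of Il1rn UMIs in NAV and 46.0% in MOCK, and 10 cells 48.7% and 36.3% of Il1b UMIs. The intervals leave this out. In the Cxcl3-led cluster the proportion was 12.4 in NAV and 22.7 in MOCK, as Il1b was higher in NAV there and Il1rn was not (1279 CPM in NAV and 1427 CPM in MOCK).

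The IL-1 receptor genes were found in different cells. Il1r1, the signalling receptor, was found mainly in gd T/T17-like cells, named by markers of gamma-delta and IL-17-making T cells. Of the CD4 T markers a share of 0.833 also passed in this cluster, and how many CD4 T cells it held was not tested. Il1r1 was among the 10 leading genes of the cluster although it was not used to find it. The cluster's 120 NAV and 152 MOCK cells were 1.20% and 1.47% of their libraries and gave 54.4% of Il1r1 UMIs in NAV and 53.6% in MOCK. Their level was 521 CPM in NAV (449.6 to 600.6) and 637.2 CPM in MOCK (567.1 to 713.5). After thinning 48 of 116 NAV cells (41.4%) and 66 of 149 MOCK cells (44.3%) had a UMI of it, and the binomial intervals, 32.3 to 50.9% and 36.2 to 52.7%, overlapped. Unthinned, 65.8% of NAV and 66.4% of MOCK cells had a UMI.

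In B cell-like cells 0.815% of NAV and 0.610% of MOCK cells had a UMI of Il1r1 after thinning, with upper bounds of 1.60% and 1.42%, and no large class had a share above these bounds. The shares were 0.639% in NAV and 1.09% in MOCK for Classical monocyte-like cells, and 0.0755% and 0.531% for Macrophage-like cells. The 44 NAV and 119 MOCK UMIs of Classical monocyte-like cells gave a ratio of -0.68 (-1.21 to -0.17), and 0.032 after the other large classes' median ratio was subtracted. Endothelial-like cells that came through the CD45 sort, 17 in NAV and 8 in MOCK, held 16 and 6 UMIs.

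Il1r2, the decoy, had its highest levels in granulocytes and then in cDC2-like cells, among classes of at least 50 cells in each library. By count, Classical monocyte-like cells gave 3.96% of its UMIs in NAV and 16.2% in MOCK, and cDC2-like cells 12.3% and 11.7%. The Siglecf-led cluster held 3421 CPM in NAV and 2861 CPM in MOCK (0.26, 0.19 to 0.33; 0.029 with each library clustered on its own), and Neutrophil-like cells 2650 and 2175 CPM (0.29, 0.20 to 0.37). The Cxcl3-led cluster held 3260 CPM in NAV and 2814 CPM in MOCK, and cDC2-like cells 905.7 and 745.1 CPM (0.28, 0.18 to 0.38). These ratios are small beside the ratio of 1.16 over all cells, and they turned to -0.28, -0.25 and -0.25 in Siglecf-led, Neutrophil-like and cDC2-like cells once the other large classes' median was subtracted. That median took in classes with few Il1r2 UMIs. In NAV and MOCK these were 117 and 45 in B cell-like, 96 and 67 in T-like, and 75 and 105 in Kupffer-like cells. Classical monocyte-like cells went the other way, with 116.3 CPM in NAV and 183.3 CPM in MOCK (-0.66, -0.78 to -0.53; -0.32 with doublets kept), and within them the Vcan-led cluster had a ratio of -1.11 and the Mmp19-led cluster -0.14. The neutrophil markers given above for these clusters were also lower in NAV in the Vcan-led one, and their part in the Il1r2 values was not tested.

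Other classes held Il1r2 at lower levels, and the smaller Cycling-like class held 458.7 CPM in NAV and 124.7 CPM in MOCK. B cell-like cells held 66.9 CPM in NAV and 32.8 CPM in MOCK (1.03, 0.52 to 1.56), and 4.79% and 1.83% of them had a UMI after thinning. Kupffer-like cells, with 75 UMIs (44.5 CPM) in NAV and 105 UMIs (14.96 CPM) in MOCK, had the ratio farthest from 0 of this gene among the large classes (1.57, 1.13 to 2.02), but 3.01% of NAV and 2.11% of MOCK cells had a UMI after thinning, near the B cell-like shares. The NAV UMIs came from 26 of 271 cells, with 73.3% of them in 10 cells, whereas those of B cell-like cells in NAV came from 89 of 1170 cells, with 23.9% in 10 cells. Where the Il1r2 UMIs of Kupffer-like cells came from was not tested. Per 1000 UMIs of the neutrophil gene S100a8, B cell-like cells held 2600 Il1r2 UMIs in NAV and 1023 in MOCK, on 45 and 44 S100a8 UMIs, against 1090 and 730 in the Siglecf-led cluster. Macrophage-like cells lay above it, at 7.55% of NAV and 4.56% of MOCK cells, with 94.7 and 53.4 CPM (0.83, 0.67 to 0.99), and the ratio was 0.51 in their Arg1-led and 0.63 in their Ms4a7-led cluster. The 10 neutrophil markers summed to 523.5 CPM in NAV and 202 CPM in MOCK (Ly6g at 0) in the Arg1-led Macrophage-like cluster, and to 210.4 CPM (Ly6g at 0) and 186.7 CPM in the Ms4a7-led one, and their part in these values was not tested.

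In B cell-like cells Il1r2 was higher by 1 or more and Il1a lower (8 UMIs in NAV and 17 in MOCK), where 0.975% of genes were higher and 5.13% lower by that size. Both fell short of that size under some alternatives, with Il1r2 at 0.74 minus the other large classes' median and Il1a at -0.53 under the stricter cell filter. In Kupffer-like cells Il1r2 was higher and Il6 lower, where the shares of genes were 1.31% and 7.22%. In Classical monocyte-like cells Il6 was lower and no member higher, beside 1.14% of genes higher and 6.05% lower. Tnf was the member lower in Neutrophil-like cells, with 2.76% of genes higher and 6.67% lower. No member passed that size in Macrophage-like cells (1.59% of genes higher and 6.46% lower), in the Siglecf-led cluster (4.34% and 3.96%) or in cDC2-like cells (2.50% and 4.58%).

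**Figure D3:**
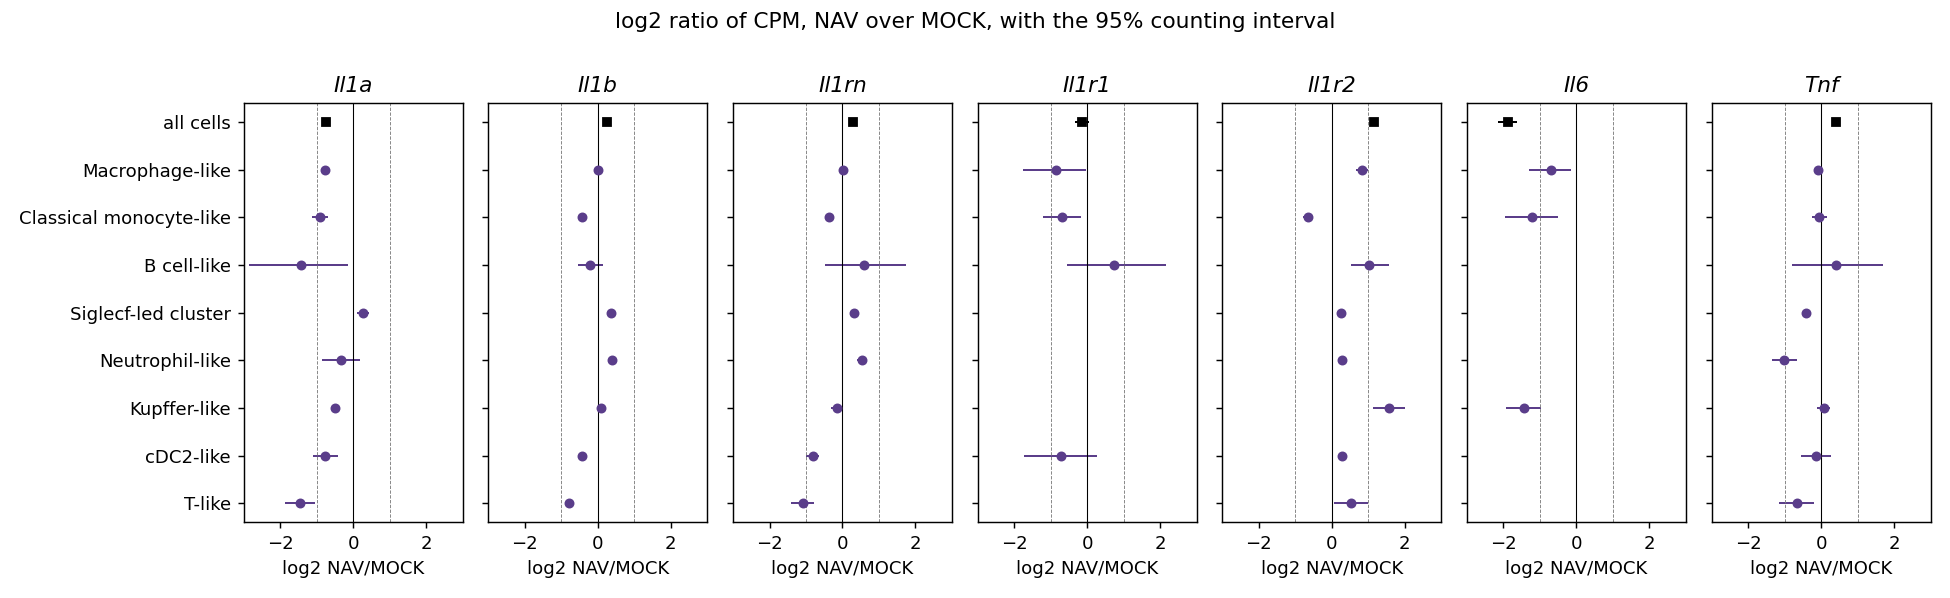
The log2 ratio of NAV over MOCK CPM (horizontal axes) of the 7 genes over all cells (squares) and in the 8 larger classes (circles), with exact 95% counting intervals and dashed lines at -1 and 1. Classes with fewer than 20 UMIs over both libraries, or with 0 in either, have no point, and the Il1a ratios of Macrophage-like, Kupffer-like, monocyte, cDC2-like and T-like cells lie below 0 while that of the Siglecf-led cluster lies above it.

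Il6 was the rarest of the 4 cytokine genes by count and came from few cells, 82 of 10037 in NAV and 311 of 10326 in MOCK. Kupffer-like cells gave 27.3% of its UMIs in NAV and 56.8% in MOCK. Within the Kupffer-like class the level of Il6 was lower in NAV too. It had 42 UMIs (24.9 CPM) in NAV and 471 UMIs (67.1 CPM) in MOCK, a ratio of -1.43 (-1.92 to -0.97). A UMI was found in 17 of 271 NAV cells (6.27%, 3.70 to 9.85%) and 166 of 985 MOCK cells (16.9%, 14.6 to 19.3%), at median depths of 6024 and 6992 UMIs. The 10 cells with the most Il6 held 83.3% of the class's NAV UMIs, so the NAV value rests on a handful of cells. Without the 1% of cells highest in Il6 in each library, a setting chosen after seeing the data, the ratio was -1.75, and minus the other large classes' median it was -0.47. After thinning, 3.01% of NAV and 4.75% of MOCK cells had a UMI, and those intervals, 1.31 to 5.84% and 3.48 to 6.30%, overlapped. In B cell-like cells no UMI was found in 981 NAV cells, which allows a share of up to 0.306%, or in 820 MOCK cells, which allows up to 0.366%, limits on cells with a UMI at the thinned depth and not on cells expressing the gene.

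Other myeloid classes of at least 50 cells in each library held Il6 at a few CPM. The highest of them was the Cxcl9-led cluster, at 6.72 CPM in NAV and 10.5 CPM in MOCK. Macrophage-like cells had 35 UMIs in NAV and 111 in MOCK (-0.71, -1.30 to -0.15). The ratio was -1.46 with the shares of their 2 clusters set equal, and 0.61 after the other large classes' median was subtracted. Classical monocyte-like cells had 22 UMIs in NAV and 86 in MOCK (-1.21, -1.95 to -0.52), a ratio of -2.33 without the 1% of cells richest in Il6 and of -0.14 minus the other large classes' median. Neutrophil-like cells had 0 UMIs in 498 NAV cells and 6 in 1074 MOCK cells, too few for a ratio. Among the smallest clusters, the Prg4-led one had 12 UMIs in its 1 NAV cell and 104 UMIs over its 61 MOCK cells, 12.5% of all Il6 UMIs in MOCK. Per cell that was more Il6 than in MOCK Kupffer-like cells, with 471 UMIs in 985 cells. Mature DC-like cells, a class of dendritic cells, had 9 UMIs in 90 NAV cells and 10 UMIs in 43 MOCK cells. ILC2-like cells, group 2 innate lymphoid cells, had 7 UMIs in 26 NAV cells and 10 UMIs in 21 MOCK cells. Il6 thus lay lower in NAV in each of the 3 large classes with at least 20 of its UMIs, and it was not detected at comparable counts in granulocytes of either library.

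Tnf was highest in the Siglecf-led cluster, and it was among the 10 leading genes of that cluster although it was not used to find it. The Siglecf-led cluster held 1153 CPM in NAV and 1524 CPM in MOCK (-0.40, -0.50 to -0.30), and a UMI was found after thinning in 41.1% of NAV and 46.1% of MOCK cells. With each library clustered on its own the ratio was 0.68, the opposite direction. The Cxcl3-led cluster held 1068 CPM in NAV and 637 CPM in MOCK, and gave 28.4% of Tnf UMIs in NAV and 2.19% in MOCK. Its 146 MOCK UMIs came from 34 of 188 cells, with 59 of them in 1 cell and 73.3% in 10 cells. In NAV 16.2% of its UMIs were in 10 cells. Neutrophil-like cells held 124.6 CPM in NAV and 249.8 CPM in MOCK (86 and 405 UMIs, a ratio of -1.004, -1.36 to -0.67), detected in 8.20% of NAV and 15.3% of MOCK cells after thinning. That ratio was -0.59 under the stricter cell filter and -0.19 with each library clustered on its own.

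In the large macrophage and monocyte classes the Tnf intervals held 0. Macrophage-like cells had 153 CPM in NAV and 163.3 CPM in MOCK (-0.09, -0.20 to 0.02), Kupffer-like cells 185.9 and 176.4 CPM (0.08, -0.11 to 0.26), and Classical monocyte-like cells 53.2 and 54.8 CPM (-0.04, -0.25 to 0.16). An interval that holds 0 does not show equal levels, but in Macrophage-like cells counting error leaves a ratio no farther from 0 than -0.20. The Nonclassical monocyte-like class, which patrols vessel walls, was higher, with 141.9 CPM in NAV (226 UMIs) and 54.5 CPM in MOCK (36 UMIs), a ratio of 1.38 (0.87 to 1.93). The 10 neutrophil markers summed to 721.4 CPM in that class in NAV and 326.8 CPM in MOCK, Ly6g at 0 in both, and their part in its values was not tested.

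**Figure D4:**
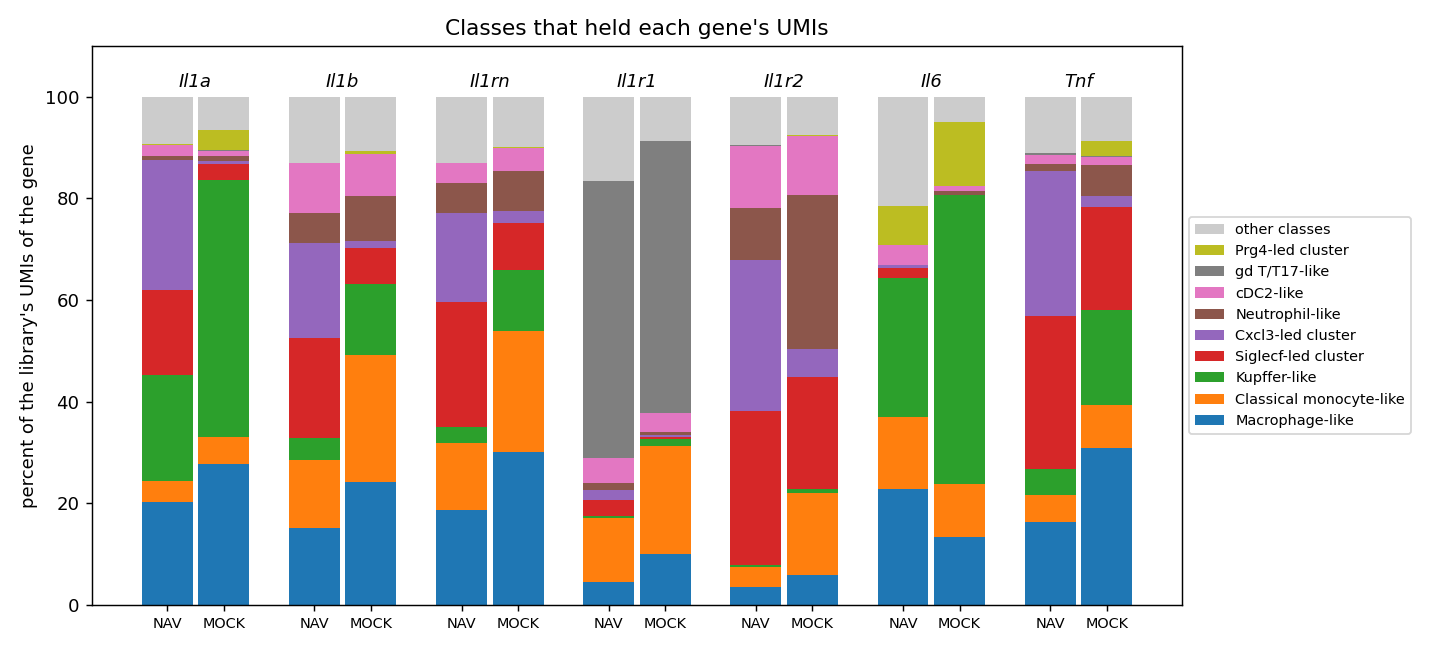
Share of each library's UMIs of a gene, in percent, that came from each class, with the NAV bar left of the MOCK bar for each of the 7 genes. Kupffer-like cells gave 20.9% of Il1a UMIs in NAV and 50.7% in MOCK, and the Cxcl3-led cluster gave 28.4% of Tnf UMIs in NAV and 2.19% in MOCK.

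The granulocyte clusters were divided further, again without the 7 genes among the clustering genes, into 9 sub-clusters. The Il23a-led sub-cluster, of 719 NAV and 91 MOCK cells and with Cxcl1 and Icam1 among its leading genes, had the highest Il1b, at 16139 CPM in NAV and 13331 CPM in MOCK. It also had the highest Tnf, at 2182 CPM in NAV and 3333 CPM in MOCK (-0.61), and the highest Il1a, at 1317 and 1002 CPM (0.40). Il1a and Tnf were themselves among its 10 leading genes. The Inhba-led sub-cluster (345 NAV and 90 MOCK cells) had the highest Il1rn, at 2338 CPM in NAV and 2473 CPM in MOCK. The Itgax-led sub-cluster (546 and 222 cells) had 4698 CPM of Il1r2 in NAV and 3974 CPM in MOCK, with Tnf at 358.3 and 727.9 CPM. The Retnlg-led sub-cluster (269 and 589 cells), with the neutrophil granule gene Mmp8 among its leading genes, had little Tnf, at 82.6 CPM in NAV and 97.0 CPM in MOCK.

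Within sub-clusters Il1b was higher in NAV in 8 of 9, with ratios between 0.23 and 1.17, and the exception was the mt-Cytb-led sub-cluster (-0.07, -0.14 to 0.01). Tnf was not uniform. It was lower in NAV in the Steap4-led (370.9 CPM in NAV and 848.5 CPM in MOCK, -1.19), Itgax-led (-1.02), mt-Cytb-led (-0.69) and Il23a-led (-0.61) sub-clusters. It was higher in the Inhba-led (1190 CPM in NAV and 584.1 CPM in MOCK, 1.03) and Ifit3-led (986.5 and 488.4 CPM, 1.01) sub-clusters. The Pgm1-led sub-cluster, with the hypoxia-induced gene Bnip3 among its leading genes, had 575 NAV and 34 MOCK cells, so its Tnf values of 526.2 CPM in NAV (342 UMIs) and 74.9 CPM in MOCK (3 UMIs) rest on few MOCK cells. The Ngp-led sub-cluster, of 38 NAV and 45 MOCK cells, held 89 and 18 Tnf UMIs.

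**Figure D5:**
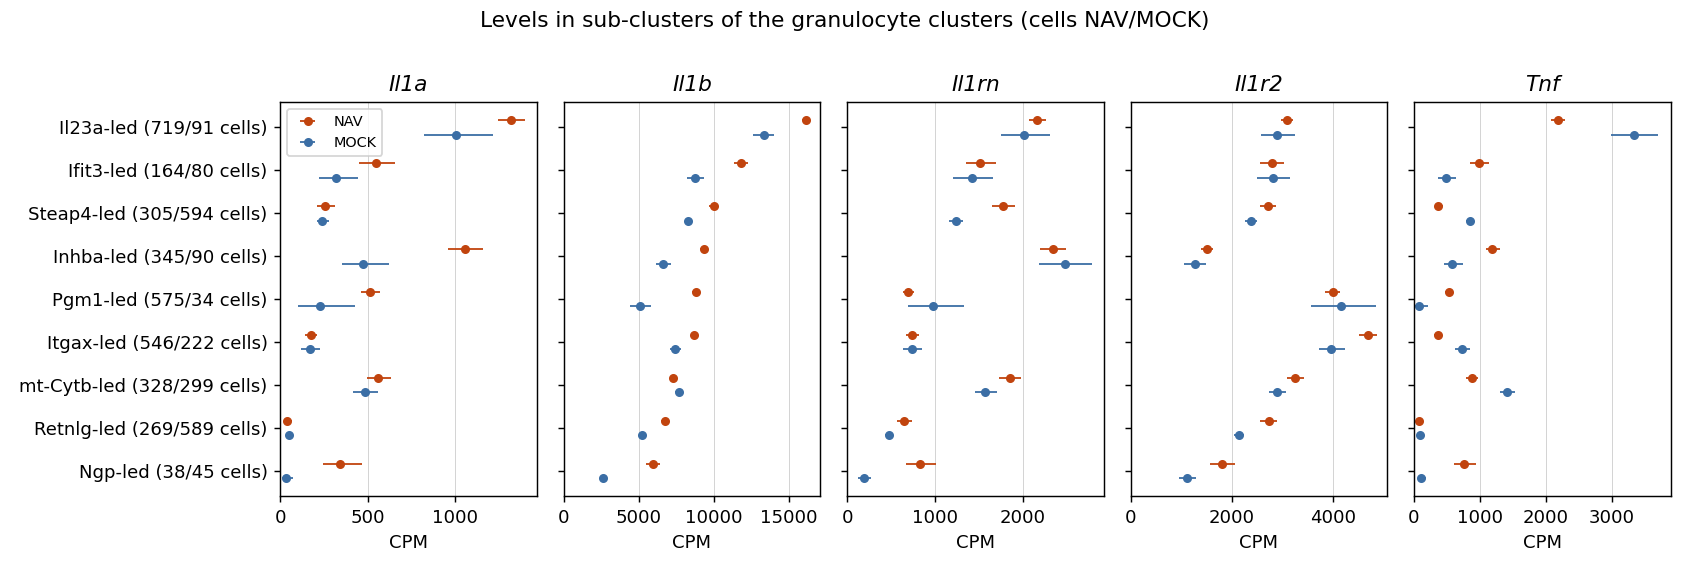
Levels (CPM, horizontal linear axes from 0) of Il1a, Il1b, Il1rn, Il1r2 and Tnf in 9 sub-clusters of the granulocyte clusters, NAV above MOCK in each pair, with exact 95% counting intervals and the number of cells in NAV and MOCK beside each name. Il1b lies right of MOCK in NAV in 8 of 9 sub-clusters, whereas Tnf lies to its left in some and to its right in others.

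Cells with several of these transcripts were common among granulocytes. After thinning, a UMI of Tnf was found in 41.9% of NAV and 47.5% of MOCK Siglecf-led cells that had Il1b, and Il1rn in 60.3% and 55.8% of them. Of Siglecf-led cells with Il1a, 208 of 213 in NAV and 108 of 112 in MOCK also had Il1b, which nearly all cells of that cluster had. In Kupffer-like cells Il1b was found in 78.6% of NAV cells with Il1a and 61% of those without it, and in 73.1% and 57.3% of MOCK cells. Il6 was seen with Il1b in 7 NAV and 39 MOCK Kupffer-like cells.

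The genes whose levels over the classes were most like each member's were found over 32 profiles, of 16 classes in each library, among 10399 genes. Profiles of a library share its depth, and classes share lineage, so the correlations of log2(CPM + 1) are descriptions. Il1b was most like Nlrp3, the sensor of the inflammasome that activates IL-1 beta (r = 0.97), Tnfaip2 (0.97) and Il13ra1 (0.97). Tnf was most like the chemokine-binding receptor gene Ccrl2 (0.97), the neutrophil chemokine gene Cxcl2 (0.95) and the medium-chain fatty acid receptor gene Gpr84 (0.93). Il1r1 was most like Il23r (0.83), the IL-23 receptor, Il17a (0.81) and Jcad (0.75). Il23r and Il17a are among the markers that named the gd T/T17-like class.

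Il1a was most like Ptgs1, which encodes cyclooxygenase 1 (0.91), Rab20 (0.89) and Atp6v1a (0.89), a subunit of the vacuolar proton pump. Il1rn was most like Clec5a (0.96), the chemokine receptor gene Ccr1 (0.96) and Fth1, the ferritin heavy chain (0.95). Il1r2 was most like Snx20 (0.94), Dhrs9 (0.93) and Cass4 (0.93), and Il6 like Bach2os (0.86), the complement gene C4b (0.85) and Nectin2 (0.85). Among the members Il1b and Il1rn were most alike (0.90), then Il1rn and Tnf (0.89), whereas Il6 and Tnf had 0.10 and Il1r1 had negative values with each of the other 6.

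Around the members, 91 genes of 9 lists were read: other IL-1 family ligands and receptors, IL-1 maturation, TNF receptors and shedding, the IL-6 receptor and related cytokines, signal transduction, NF-kappaB subunits, mRNA decay, and NF-kappaB target cytokines. Over all cells 86 had at least 20 UMIs, of which 3 were higher and 9 lower by 1 or more, where 5.05% of all genes were higher and 6.07% lower, with a median ratio of 0.01, beside a median of 0.06 over all genes. In the 8 large classes between 0 and 4 of the measured list genes were higher and between 3 and 12 lower by that size, beside 0.975 to 4.34% of all genes higher and 3.96 to 8.0% lower. Those lower were 8 of 82 in Macrophage-like cells (6.46% of all genes) and 6 of 79 in Classical monocyte-like cells (6.05%). They were 7 of 65 in B cell-like (5.13%), 4 of 73 in Siglecf-led (3.96%) and 3 of 68 in Neutrophil-like cells (6.67%). The other classes had 3 of 77 in Kupffer-like (7.22%), 12 of 79 in cDC2-like (4.58%) and 11 of 76 in T-like cells (8.0%). None of the 10 inflammasome and maturation genes passed a ratio of 1 in size in 7 of the 8 classes, and in Neutrophil-like cells 1 was higher and 1 lower. The list of IL-1 and Toll signal transduction, which holds Myd88 and the Irak kinases, had no gene past it in any of the 8.

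The list genes past that size in the most classes were lower in NAV. Rela, the p65 subunit of NF-kappaB, was lower in 8 of 8 classes, with 39.3 CPM in NAV and 148 CPM in MOCK Macrophage-like cells (-1.92) and 72.4 and 204 CPM in Neutrophil-like cells (-1.50). Traf2, an adaptor of TNF receptors, was lower in 6 of 7 classes measured, and Tnfaip8l2, a negative regulator of immune signalling, in 6 of 8. Rhbdf2, which carries ADAM17 to the cell surface, was lower in 4 of 8, the related Rhbdf1 in 3 of 4, and Nfkb2, the precursor of the p52 subunit, in 3 of 8. The last 500 transcript bases of these 6 genes had a GC content of 51.0 to 58.6%, in the 2 highest deciles of measured genes, and the part of GC content in their ratios was not tested. The members lay in deciles 1 to 8, with Il6 at 26.8% and Il1r2 at 49.0%.

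Chemokine genes among the NF-kappaB targets went both ways. Cxcl3, a neutrophil attractant, was higher in 3 of 7 classes, with 99.8 CPM in NAV and 29.3 CPM in MOCK Macrophage-like cells (1.77). Cxcl10, an attractant of T cells, was also higher in 3 of 7, with 211 CPM in NAV and 84.1 CPM in MOCK Kupffer-like cells (1.33). Ccl7 (lower in 2 of 5 classes), Cxcl1 and Ccl2 (each lower in 2 of 7) were lower in cDC2-like cells and in T-like cells, whose macrophage transcripts are given above. Among IL-1 family genes, the IL-36 receptor gene Il1rl2 was lower in 2 of 5 classes, and Il18bp, which encodes a soluble inhibitor of IL-18, was lower in T-like cells (-2.12) and higher in cDC2-like cells (1.68), with 17 UMIs in NAV and 4 in MOCK in the last. The IL-36 gamma gene, which the tables hold under its older symbol Il1f9, was read after its values were seen and was at 475 CPM in NAV and 608.9 CPM in MOCK Neutrophil-like cells (-0.36, -0.54 to -0.18) and at 269.5 and 328.2 CPM in the Siglecf-led cluster (-0.28, -0.50 to -0.06). Over all cells Il1f9 was higher in NAV, at 38.2 CPM, against 32.8 CPM in MOCK (0.22, 0.11 to 0.33), the interval of the Cxcl3-led cluster held 0 (0.25, -0.27 to 0.82), and Nonclassical monocyte-like cells had 22 UMIs in NAV and 0 in MOCK.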

How the data were processed

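UMI counts per gene and barcode were used as deposited by the authors, 1 table per library. The submitters' processing notes name the mm10 build, STARsolo 2.7.10a, fastp and Cell Ranger, without their roles or order. The filter kept barcodes of 500 or more UMIs and 200 or more genes whose mitochondrial share was below 20%; 24 NAV and 93 MOCK barcodes failed it. The automatic Scrublet threshold marked 0 NAV and 1 MOCK barcodes and had not worked, so scores above 0.25 and clusters with a median score above 0.1 were removed (404 and 444 barcodes, 3.87% and 4.12%). Cells were clustered jointly without batch correction in scanpy 1.11.5 (2000 variable genes without the 7 members, 30 principal components, 15 neighbours, Leiden resolution 1). Clusters were named where 3 or more markers of a type were present in 10% of cells at a log2 fold of 1, with 1 in the top 10 genes or 60% of the type's markers passing.

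UMIs were summed per class and library. Ratios have exact intervals conditional on both counts, levels exact Poisson and shares Clopper-Pearson 95% intervals, and the limit of a count of 0 is 3 counts. The interval and the ratio were tested on simulated counts drawn independently, as the interval assumes, so the clumping of UMIs in cells was not covered. Shares of cells were thinned to 1000 UMIs. With 1 library per group no test was made. The members and lists were chosen with earlier results of these data known. Named genes around the members had a log2 ratio of at least 1 in size, at least 20 UMIs and an interval without 0 in at least 2 large classes; up to 15 were allowed and 13 passed. Of the list symbols, 3 were not matched in the tables. The alternatives were a stricter cell filter, doublets kept, cells weighted equally, median-of-ratios scaling, subtraction of the GC decile's median or of the other large classes' median, class or cluster shares set equal, the members kept in the clustering, resolution 2, libraries clustered separately and thinning to 500 UMIs.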

Additional observations from a re-analysis of the deposited data

How the results depend on the processing

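No paired analysis was possible because each group is 1 library, and no replicate was left out for the same reason. Depth limits Il6, Il1r1 and the lymphoid classes most, and intervals cover counting error only.

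Ratios over all cells moved as follows. With class shares set equal they were -0.38 for Il1a, 0.048 for Il1b, 0.016 for Il1rn, 0.36 for Il1r2, 0.16 for Il6 and 0.047 for Tnf, and also without the Prg4-led cluster -0.39, 0.039, 0.024, 0.37, -1.17 and 0.021 in the same order. Equal weight per cell gave 0.090 for Il1a, 0.53 for Il1b, 0.55 for Il1rn, -0.49 for Il1r1, 0.96 for Il1r2 and 0.64 for Tnf. The stricter filter gave -0.83 for Il1a, 0.20 for Il1b, 0.21 for Il1rn, 1.1 for Il1r2 and 0.30 for Tnf. Median-of-ratios scaling gave -0.81, 0.20, 0.22, 1.1 and 0.35 for those 5 genes, and subtracting the median of the GC decile -0.84, 0.17, 0.19, 1.09 and 0.33. Without the 1% of cells with the most UMIs of the gene, Il1a was at -0.79, Il1r1 at -0.40 and Tnf at 0.35. The other 26 alternatives stayed within the intervals.

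For values within classes, shares of cells included, 434 alternatives stayed within the interval, 253 moved and 9 reversed. Minus the other large classes' median, Il6 was at 0.61 in Macrophage-like cells, Il1r1 at 0.032 in Classical monocyte-like cells, Il1r2 at -0.28, -0.25 and -0.25 in Siglecf-led, Neutrophil-like and cDC2-like cells, and Il1a at 0.27 and 0.015 in Kupffer-like and cDC2-like cells. For Il1a and Il1r2 that median took in B cell-like cells, which held few counts of both. With members kept in the clustering, Il1a was at -0.065 in the Siglecf-led cluster, and with libraries clustered separately Tnf was at 0.68 there. The cause of the Tnf and Il1a changes was not tested.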
